A study of Rattus norvegicus with 50 samples.

Results

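Cytochrome P450 enzymes are heme proteins that insert oxygen into drugs, fatty acids, steroids and vitamins. The genes described here are all those whose symbol in the probe annotation starts with Cyp and a digit, on probe sets that list 1 gene, other than Cyp3a2, Cyp3a9, Cyp3a18, Cyp7a1, Cyp7b1, Cyp8b1, Cyp27a1 and Cyp51. They number 50 of the 14217 genes on the array that could be named, each read from its probe set with the highest mean over the 50 samples. By role, 3 genes are of family 1 (targets of the aryl hydrocarbon receptor). Another 7 are listed under the drug sensors CAR and PXR, though the list does not show that each responds. The rest are 19 other genes of family 2 and 10 fatty acid hydroxylase genes of family 4, and 11 for steroid, retinoid, vitamin D and other enzymes. Cyp2b1, Cyp2b2, Cyp24a1 and Cyp2r1 have no probe set of their own here and were not analysed as genes.

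Livers came from 50 female Brown Norway rats of 9 to 11 weeks, strain BN/Crl with the RT1n haplotype, with 1 array per rat. The study set the combination of nevirapine and galactosamine, after which fibrosis developed within 8 d, against each drug alone. Vehicle rats had sham doses by mouth and into the peritoneum and were sampled at 3 h, 24 h, 48 h, 8 d and 15 d. Galactosamine rats had 1 injection of 750 mg/kg into the peritoneum and sham oral doses, and were sampled at 3 h, 24 h, 48 h and 8 d after it. Nevirapine rats had oral doses of 150, then 100, then 75 mg/kg with a sham injection, and were sampled 3 h, 24 h, 48 h and 15 d after the first dose. Combination rats had the same oral nevirapine for 7 d before the same injection of galactosamine and went on with nevirapine, and were sampled 3 h, 24 h, 48 h and 8 d after the injection, the last of these after 15 d of nevirapine. Each of the 17 groups held 3 rats, except 2 for galactosamine at 48 h. Most rats were killed 2 h after an oral dose, but those of the 3 h groups 5 h after one, or 3 h in the case of nevirapine alone. Rats of nevirapine alone at 24 h and 48 h had 2 and 3 doses, while combination rats of the same time label had 9 and 10, so these groups do not match in nevirapine dosing.

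Galactosamine is an amino sugar that traps uridine nucleotides in hepatocytes and injures them. Nevirapine is an antiretroviral drug, known as an inducer of its own P450-dependent clearance. In hepatocytes, drugs reach the nuclear receptors CAR and PXR, which pair with the retinoid X receptor at repeated DNA elements and raise genes of families 2B, 2C and 3A. The aryl hydrocarbon receptor raises family 1, the fatty acid sensor PPARalpha raises family 4A, and retinoic acid, through its own receptor, raises Cyp26a1, whose enzyme then breaks retinoic acid down. In rats, pituitary growth hormone sets a sex pattern, with Cyp2c11, Cyp2c13 and Cyp2a2 as male genes and Cyp2c12 as a female gene. Liver P450s need electrons from the reductase Por and a heme whose synthesis starts with Alas1.

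Promoter sequence is shown for Cyp3a23-3a1, the drug-metabolising gene that was higher in every nevirapine and combination group, and for Cyp26a1, the retinoic acid hydroxylase gene with the widest range of group means among all 50 genes (log2 3.84). RefSeq promoter windows (GRCr8) were given for 40 of the 50 genes, and the 250 bases before each start were searched for 2 copies of AGGTCA or AGTTCA in the same direction, 1 to 5 bases apart, on either strand. Receptors of this family are known to read such direct repeats, with the spacing setting which pair binds. Capitals mark the repeat, which is written here on the strand opposite to AGTTCA.
Cyp3a23-3a1: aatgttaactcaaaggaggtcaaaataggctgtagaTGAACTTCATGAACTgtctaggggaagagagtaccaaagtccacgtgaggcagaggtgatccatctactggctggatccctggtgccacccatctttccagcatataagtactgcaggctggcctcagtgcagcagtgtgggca
Cyp26a1: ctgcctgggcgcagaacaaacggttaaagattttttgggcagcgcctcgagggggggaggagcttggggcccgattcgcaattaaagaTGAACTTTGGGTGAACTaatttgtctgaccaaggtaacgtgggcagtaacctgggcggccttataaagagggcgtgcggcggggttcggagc
The sequences are the 180 bases before the start, at chr12:14398804-14398983 (minus strand) for Cyp3a23-3a1 and chr1:244883642-244883821 (plus strand) for Cyp26a1. In Cyp3a23-3a1 the copies are 3 bases apart and lie 144 to 130 bases before the start. A repeat of this spacing stood in 0.0388% of 33469 promoter windows and in no other of the 40 searched. In Cyp26a1 the copies are 5 bases apart, 92 to 76 bases before the start, a spacing found in 0.0299% of windows and in no other of the 40. Repeats 1, 2 or 4 bases apart were in none of the 40 and in 0.0807%, 0.0388% and 0.0149% of all windows. These are matches of letters and do not show that a receptor was bound in these livers.

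Signals are log2 values normalised by the authors. The highest mean of 27 probe sets for bacterial genes, log2 4.37, served as a background level. By group means, 35 genes exceeded it in all 17 groups, 8 in some and 7 in none (Cyp11a1, Cyp11b1, Cyp19a1, Cyp2b12, Cyp2b21, Cyp2g1 and Cyp2j10). Where a group mean lies under this level, a change is given as at least the fold of the brighter group over it. At the other end, Cyp2e1, Cyp2c7, Cyp2c6v1, Cyp3a23-3a1 and Cyp2c12 averaged log2 13.1 to 13.6 while the highest signal on any array was 14.22. Changes there may be compressed, which was not tested. In the 15 vehicle rats, female Cyp2c12 lay between 12.9 and 13.2, and the male genes Cyp2c11, Cyp2c13 and Cyp2a2 lay between 4.78 and 5.19, 3.37 and 4.79, and 4.81 and 7.13. The 9 measured of 10 hepatocyte markers averaged log2 13.3 to 13.5 in every group, and 2 of 3 kidney tubule markers were below background in each. The 7 measured of 8 macrophage markers all exceeded it, and their mean ran from 6.47 (nevirapine, 24 h) to 9.29 (combination, 3 h). Fewer cells of a type and less RNA per cell cannot be told apart in whole liver. The GAPDH 3′ minus 5′ difference, which rises as RNA breaks, lay between 0.0089 and 0.86, and array medians between 4.954 and 5.093.

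Changes below are log2 differences of group means with their standard error, from limma fitted across all genes and all 50 arrays. A gene was called at a Benjamini-Hochberg adjusted p under 0.05. The percent of all 14217 genes called in a comparison stands beside the count of P450 genes, which has to be read against it. Treatments of the same time share their vehicle rats, so their comparisons are not independent. Nothing beyond the rat numbers says how the rats were housed or handled. The p-values set a difference of means against a spread between rats estimated over all 17 groups. They do not account for handling that differed between groups.

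**Figure D1:**
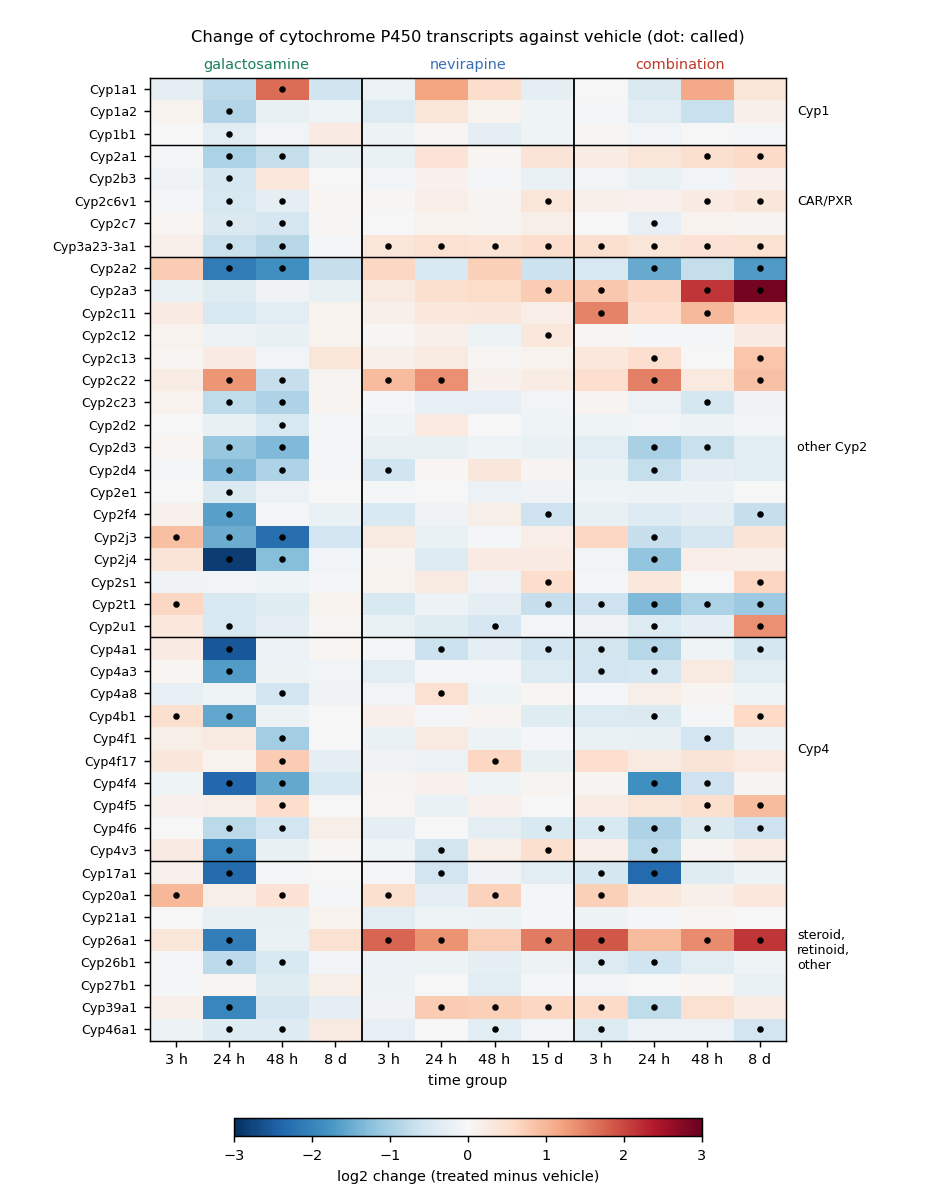
Log2 change against vehicle (colour) of the 43 P450 genes that exceeded background in some group, by treatment and time. Dots mark called changes; galactosamine columns are mostly blue at 24 h and 48 h, with no dot at 8 d, and Cyp26a1 and Cyp3a23-3a1 are red across the nevirapine and combination columns.

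Galactosamine alone lowered many P450 genes at 24 h and 48 h, and at 8 d no change was called. At 3 h only Cyp20a1, Cyp2j3, Cyp2t1 and Cyp4b1 were called, all higher (4 of 50, beside 32.9% of all genes called and 14.9% called higher). At 24 h there were 30 called, 1 higher and 29 lower (58.8% of all genes, 30.2% higher and 28.5% lower). At 48 h there were 23, 4 higher and 19 lower (39.4% of all genes, 24.9% higher and 14.5% lower). At 8 d limma called none (0.0352% of all genes, 0.00703% higher and 0.0281% lower), with 5 at an unadjusted p under 0.05, 2 called with array weights and 4 against all 15 vehicle rats. The share called at 24 h, 60%, is close to that of all genes. The median change was log2 -0.47 over the P450 genes and -0.07 over all genes. With cyclic loess normalisation the count at 24 h was 27, 6 higher and 21 lower. Of the genes called lower, 14 were so at both 24 h and 48 h, in different rats against different vehicle rats. They make 14 of 29 and 14 of 19, and 28% of the 50 genes, while 8.45% of all genes were called lower at both times. Among them were Cyp2j4, Cyp2j3, Cyp4f4, Cyp2d3, Cyp2d4 and Cyp2c23. Not all 14 held in every setting. With cyclic loess normalisation Cyp2c23, Cyp2c6v1 and Cyp3a23-3a1 did not pass at 24 h (adjusted p = 0.103, 0.0922 and 0.677), and Cyp2c7 was called higher (0.0254). At 48 h Cyp2c6v1 did not pass with that normalisation (0.344), nor Cyp2d4 and Cyp4f6 against all 15 vehicle rats (0.0608 and 0.268). Cyp26b1 did not pass at 48 h by the mean of its probe sets (0.0837). Without rat2, rat3 or rat17 the count at 3 h was 2, and without rat27 that at 48 h was 15. The macrophage marker means of galactosamine rats did not overlap those of vehicle rats at 3 h (8.13 to 8.32, against 6.55 to 7.61), 24 h (8.11 to 8.31, against 6.99 to 7.07) or 48 h (9.22 to 9.25, against 6.57 to 7.92). The 5 endothelial markers averaged higher at 3 h (9.41 to 9.45, against 8.44 to 8.81) and lower at 24 h (7.92 to 8.41, against 8.48 to 8.72). At 48 h the GAPDH difference did not overlap (0.130 to 0.145, against 0.483 to 0.744), and their part in the results was not tested.

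Nevirapine alone changed few P450 genes, and most of those rose. At 3 h 5 were called, 4 higher and 1 lower (15.1% of all genes, 7.59% higher and 7.48% lower). At 24 h there were 9, 6 higher and 3 lower (11.2%, 4.55% higher and 6.63% lower). At 48 h there were 6, 4 higher and 2 lower (17.4%, 11% higher and 6.44% lower), and at 15 d 13, 9 higher and 4 lower (13.9%, 5.13% higher and 8.79% lower). Only at 24 h and 15 d did the share of P450 genes, 18% and 26%, lie above that of all genes. The gene called higher at all 4 times was Cyp3a23-3a1. The counts depend on single rats. At 15 d 7 were called without rat13, rat44 or rat45 and 4 without rat14, at 48 h 3 without rat10 and 1 without rat41, at 24 h 5 without rat39, and at 3 h 3 without rat3. The GAPDH difference did not overlap between nevirapine rats at 15 d (0.197 to 0.211) and their vehicle rats (0.0347 to 0.118). Macrophage markers were lower without overlap at 24 h (6.33 to 6.64, against 6.99 to 7.07) and 15 d (7.30 to 7.45, against 7.83 to 7.99). Endothelial markers were higher without overlap at 3 h (8.83 to 9.12, against 8.44 to 8.81) and 48 h (8.66 to 8.75, against 7.96 to 8.56). At 15 d they were lower without overlap (8.48 to 8.70, against 8.78 to 8.89). Their part in the results was not tested.

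The combination gave rises and falls. At 3 h 13 genes were called, 6 higher and 7 lower (32.5% of all genes, 15.2% higher and 17.4% lower), and at 24 h 20, 3 higher and 17 lower (36.7%, 20.7% higher and 16% lower). At 48 h there were 14, 8 higher and 6 lower (15.9%, 10.2% higher and 5.77% lower). At 8 d, against the vehicle rats with the same 15 d of dosing, there were 19, 12 higher and 7 lower (24.8%, 13.1% higher and 11.7% lower), which included the rises of Cyp2a3, Cyp26a1 and Cyp2u1. With cyclic loess normalisation the split at 24 h was 6 higher and 16 lower, and with quantile normalisation that at 48 h was 6 higher and 7 lower. At 48 h 3 were called with only the compared groups fitted, and the GAPDH difference did not overlap (0.293 to 0.348, against 0.483 to 0.744 in vehicle rats). The count there fell to 9 without rat10, 8 without rat12 and 6 without rat70. Called at all 4 times were Cyp3a23-3a1, higher, and Cyp2t1 and Cyp4f6, lower. Macrophage marker means were above those of vehicle in each combination group (9.29 against 7.06 at 3 h, 8.72 against 7.03 at 24 h, 8.85 against 7.19 at 48 h and 8.70 against 7.91 at 8 d). Endothelial markers were higher without overlap at 3 h (8.88 to 9.30, against 8.44 to 8.81). Their part in the results was not tested.

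Set directly against galactosamine alone, most of the P450 genes that differed were higher in the combination at 24 h and 48 h, while 29 of 50 were not called at each of these times. At 3 h 12 differed, 3 higher and 9 lower (17.7% of all genes, 10.6% higher and 7.06% lower). At 24 h 21 differed, 19 higher and 2 lower (37.8%, 16.2% higher and 21.6% lower), and at 48 h 21, 20 higher and 1 lower (29.3%, 12.1% higher and 17.1% lower). The medians over the 50 genes were log2 0.26 at 24 h and 0.30 at 48 h, and those over all genes 0.03 and 0.01. Cyclic loess normalisation gave 5 higher and 7 lower at 3 h and 15 higher and 4 lower at 24 h. The GAPDH difference did not overlap between these groups at 24 h (0.184 to 0.277 in the combination, 0.391 to 0.531 with galactosamine) or at 48 h (0.293 to 0.348 and 0.130 to 0.145), in opposite directions. At 8 d the effects of the combination and of galactosamine on their own vehicle rats differed in 7 genes, 4 higher and 3 lower (11.2%, 5.87% higher and 5.34% lower). That count was 16 when both groups were compared directly, with only the groups of the comparison fitted or against all vehicle rats, 11 with cyclic loess normalisation and 19 with array weights. The combination differed from nevirapine alone in 9, 5 higher and 4 lower (12.4%, 9.31% higher and 3.09% lower).

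Genes that respond to CAR and PXR encode the enzymes that clear most drugs. Cyp3a23-3a1, a main enzyme of this kind in rat liver, measured 13.16, 13.02 and 12.57 in vehicle rats at 3 h and 13.19, 13.36 and 13.33 after nevirapine. At 15 d it measured 12.96, 13.26 and 12.91 in vehicle rats and 13.54, 13.60 and 13.56 after nevirapine, and 13.48, 13.55 and 13.47 in combination rats. The treated rats all lay above their vehicle rats, and close to the top of the scale. The rises with nevirapine were log2 0.37 ± 0.13 at 3 h, 0.45 ± 0.13 at 24 h, 0.41 ± 0.13 at 48 h and 0.53 ± 0.13 at 15 d (adjusted p = 0.0495, 0.0214, 0.0278 and 0.00575). The call at 15 d held without each rat. Those at 3 h, 24 h and 48 h were lost without any 1 of rat2, rat3, rat31, rat32 and rat33 (adjusted p up to 0.359), of rat4, rat6, rat37 and rat38 (up to 0.112), and of rat10, rat11, rat41 and rat42 (up to 0.102). The call at 3 h was also lost against all 15 vehicle rats (0.0746), with array weights (0.0527) and with only those groups fitted (0.163). The rises with the combination (log2 0.49, 0.37, 0.44 and 0.46 at 3 h, 24 h, 48 h and 8 d) were lost without rat3 (adjusted p = 0.0788), without any 1 of rat4, rat6, rat69 and rat79 (up to 0.111), without any 1 of rat10, rat11 and rat70 (up to 0.0997) and without rat15 (0.061). With only the compared groups fitted, those at 3 h and 48 h did not pass (0.0808 and 0.0883). That at 48 h was also lost with array weights (0.0577) and with rat63, rat70 and rat31 left out (0.0914).

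With galactosamine the same gene moved the other way. Cyp3a23-3a1 measured 12.61, 12.54 and 12.03 at 24 h against 12.95, 13.18 and 13.05 in vehicle rats (log2 -0.67 ± 0.13, adjusted p = 3.67e-05), but the fall did not pass after cyclic loess normalisation (adjusted p = 0.677). At 48 h it measured 11.88 and 12.56 against 12.93, 13.02 and 13.20 (log2 -0.83 ± 0.15, adjusted p = 2.26e-05), and this call held in each setting and without each rat. The combination rats did not show this fall. They measured 13.39, 13.47 and 13.43 at 24 h and 13.58, 13.47 and 13.41 at 48 h, all above every vehicle rat of those times. Against galactosamine the difference was log2 1.04 ± 0.13 at 24 h (adjusted p = 4.59e-08) and 1.27 ± 0.15 at 48 h (adjusted p = 1.61e-08).

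Cyp2a1, whose enzyme hydroxylates testosterone, was lower with galactosamine at 24 h and 48 h, and was called higher with the combination at 48 h and 8 d but not at 24 h (log2 0.35, adjusted p = 0.0638). It measured 11.85, 12.03 and 11.83 in vehicle rats at 24 h, 10.99, 11.51 and 10.37 after galactosamine, and 12.31, 12.17 and 12.28 after the combination. The fall with galactosamine was log2 -0.95 ± 0.15 (adjusted p = 1.06e-06), and the combination lay log2 1.30 ± 0.15 above galactosamine (adjusted p = 6.67e-09). At 48 h Cyp2a1 was between 12 and 12.13 in vehicle rats, 11.21 and 11.48 after galactosamine and 12.50, 12.53 and 12.58 in combination rats, so the 3 groups did not overlap. The call of the combination against vehicle at 48 h (adjusted p = 0.0232) was lost with only those groups fitted (0.052), with rat63, rat70 and rat31 left out (0.0538) and without any 1 of rat10, rat11, rat70 and rat72 (0.0568 to 0.0742). The combination lay log2 1.20 ± 0.17 above galactosamine (adjusted p = 7.17e-07). At 8 d of the combination it was 12.41, 12.64 and 12.38 against 11.83, 11.86 and 12.01 (log2 0.58 ± 0.15, adjusted p = 0.00452). With nevirapine alone at 15 d it was 12.18, 12.32 and 12.40, which did not pass (log2 0.40 ± 0.15, adjusted p = 0.0732).

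Cyp2c6v1 and Cyp2c7, which encode abundant 2C enzymes, moved little on a scale near its top. Cyp2c6v1 was higher at 15 d of nevirapine, at 13.43, 13.53 and 13.44 against 13.03, 13.17 and 13.10 (log2 0.37 ± 0.08, adjusted p = 0.00132), and at 8 d of the combination (log2 0.33 ± 0.08, adjusted p = 0.00213). Cyp2c7 was lower 24 h after galactosamine, at 13.30, 13.38 and 12.68 against 13.52, 13.59 and 13.56 (log2 -0.43 ± 0.10, adjusted p = 0.000232). With only those groups fitted the call was lost (adjusted p = 0.0836). With cyclic loess normalisation that value turned to 0.21, and for Cyp2c6v1 at the same time log2 -0.47 turned to 0.14. Of the 7 genes in this group, 5 were called lower and none higher 24 h after galactosamine (median log2 -0.47; 58.8% of all genes were called, 28.5% lower). With cyclic loess normalisation only Cyp2a1 of these 5 was still called lower, since Cyp2b3 (adjusted p = 0.91), Cyp3a23-3a1 (0.677) and Cyp2c6v1 (0.0922) did not pass and Cyp2c7 was called higher (0.0254). At 8 d of the combination 4 were called higher and none lower (median 0.33, against -0.02 over all genes, of which 24.8% were called and 13.1% higher). The fourth of these, Cyp2b21, was under the background level in every group, as was Cyp2b12, which was not called in any comparison.

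A probe set that lists both Cyp2b1 and Cyp2b2, the classic genes raised by phenobarbital through CAR, is counted under neither. Its values show a contrast that covers all rats on nevirapine and are given without a test. It measured 10.18, 10.02 and 9.87 in vehicle rats at 15 d, and 13.55, 13.60 and 13.57 after 15 d of nevirapine. Nevirapine rats at 3 h already read 13.16, 13.08 and 12.66, against 9.72, 10.33 and 7.69 in vehicle rats. With galactosamine it read 6.17, 8.21 and 5.88 at 24 h, and 13.41, 13.41 and 13.25 in combination rats. All nevirapine and combination rats lay above all vehicle and galactosamine rats. Which of both genes gave this signal cannot be told from the probe set.

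**Figure D2:**
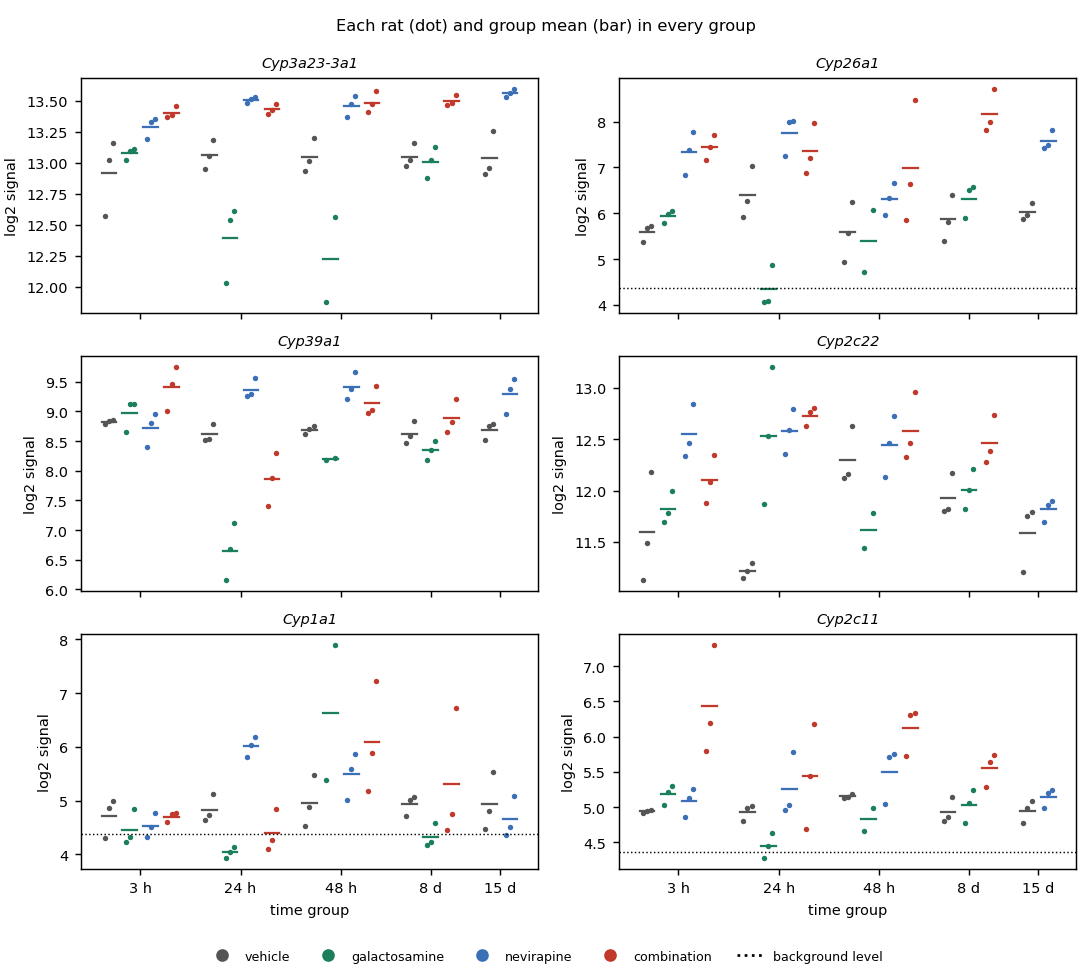
Log2 signal of 6 P450 genes in each rat (dots) with the group mean (bars), by time and treatment; the dotted line is the background level of 4.37. Nevirapine and combination rats lie above vehicle rats for Cyp3a23-3a1, and Cyp26a1 of all galactosamine rats at 24 h lies below vehicle rats while combination rats read 6.89 to 7.96.

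Of the 3 genes of family 1, Cyp1a2 and Cyp1b1 were called lower 24 h after galactosamine and Cyp1a1 higher after 48 h, none of them in every setting. Cyp1a2, the caffeine-oxidising enzyme of hepatocytes, read 11.10, 11.89 and 10.09 at 24 h of galactosamine against 12.03, 11.83 and 11.84. The groups overlapped, and the call (log2 -0.88 ± 0.26, adjusted p = 0.00369) was lost without rat24 (adjusted p = 0.145) and with cyclic loess normalisation (adjusted p = 0.126). Cyp1b1, which also has sites outside the liver, changed less (log2 -0.32 ± 0.11, adjusted p = 0.0142, but 0.0555 without rat5 and 0.11 without rat22). Cyp1a1, the gene most strongly tied to the aryl hydrocarbon receptor, was near background in vehicle rats and varied between rats of a group. At 48 h of galactosamine it read 5.38 and 7.90 against 4.52, 5.47 and 4.88, so that 1 rat carried the difference (log2 1.68 ± 0.50, adjusted p = 0.00698, but 0.612 without rat27). With only the compared groups fitted these 3 calls were lost too (adjusted p = 0.0828, 0.0668 and 0.0683). At 24 h of nevirapine it read 6.03, 5.81 and 6.18 against 5.13, 4.64 and 4.73, with no overlap, yet did not pass (log2 1.18 ± 0.45, adjusted p = 0.086).

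The other genes of family 2 held the largest fall after galactosamine and the largest rise after the combination among those called. Cyp2j4, whose enzyme makes epoxides from arachidonic acid, measured 10.11, 9.88 and 10.19 in vehicle rats at 24 h, 6.81, 7.93 and 6.86 after galactosamine and 8.44, 9.28 and 8.90 after the combination. The 3 groups did not overlap. Galactosamine lowered it by log2 -2.86 ± 0.26 (adjusted p = 2e-12), a fold of 7.24, and the combination by -1.18 ± 0.26 (adjusted p = 0.00027). The direct difference between both groups was 1.67 ± 0.26 (adjusted p = 1.42e-06). At 48 h it was 8.31 and 8.96 after galactosamine and 10.16, 10.62 and 9.54 after the combination, against 9.92, 9.84 and 9.96 in vehicle rats. Combination rats at that time were not called against vehicle (log2 0.20 ± 0.26, 95% interval -0.32 to 0.72), while galactosamine rats stayed low (log2 -1.27 ± 0.29, adjusted p = 0.000491).

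Cyp2j3, a relative of Cyp2j4, rose before it fell. It measured 9.44, 9.79 and 8.92 at 3 h of galactosamine against 8.54, 8.37 and 8.56 in vehicle rats (log2 0.89 ± 0.27, adjusted p = 0.00901, but 0.0803 without rat17). At 24 h it was 6.74, 7.64 and 6.52 against 8.76, 8.22 and 8.36 (log2 -1.48 ± 0.27, adjusted p = 1.04e-05). At 48 h it was 6.51 and 7.00 against 8.94, 8.66 and 9.48, a fall of log2 -2.27 ± 0.30 (adjusted p = 1.37e-07) and the largest at that time. Combination rats at 48 h, at 8.12, 8.84 and 8.63, lay log2 1.78 ± 0.30 above galactosamine rats (adjusted p = 1.66e-05). A second probe set of Cyp2j3 had the same sign in the called comparisons with galactosamine at 3 h, 24 h and 48 h (1.29, -1.55 and -1.80).

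Cyp2e1, the ethanol-oxidising enzyme that also activates paracetamol, is the brightest of the 50. It read slightly lower 24 h after galactosamine, at 13.24, 13.48 and 12.87 against 13.63, 13.59 and 13.64 (log2 -0.42 ± 0.08, adjusted p = 4.21e-05). With cyclic loess normalisation the value turned to 0.23 and was called higher (adjusted p = 0.00583), so its direction depends on the normalisation. The fall was also not called with only those groups fitted (adjusted p = 0.0565). Of the genes of the debrisoquine family, Cyp2d3 and Cyp2d4 fell at 24 h, and Cyp2d2 was not called then (log2 -0.23, adjusted p = 0.1). Cyp2d3 measured 10.89, 11.76 and 10.71 against 12.15, 12.33 and 12.25 at 24 h (log2 -1.13 ± 0.19, adjusted p = 1.85e-06) and 10.64 and 11.13 against 12.02, 12.26 and 12.32 at 48 h (log2 -1.31 ± 0.21, adjusted p = 3.19e-06). Cyp2d3 was also lower in combination rats at 24 h (log2 -0.98 ± 0.19, adjusted p = 4.27e-05). Cyp2d4 fell by log2 -1.32 ± 0.14 at 24 h (adjusted p = 2.87e-10) and -0.94 ± 0.16 at 48 h (adjusted p = 1.22e-05). The last of these was not called against all 15 vehicle rats (adjusted p = 0.0608).

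Cyp2f4, known from lung for oxidising naphthalene, fell 24 h after galactosamine, at 7.68, 6.68 and 7.01 against 8.73, 8.99 and 8.51 in vehicle rats (log2 -1.62, adjusted p = 3.36e-09). Combination rats of that time, at 8.67, 8.64 and 7.75, lay log2 1.23 ± 0.20 above galactosamine rats (adjusted p = 2.79e-06). At 15 d of nevirapine it was 8.46, 8.50 and 8.33 and at 8 d of the combination 8.36, 8.38 and 8.35, against 9.17, 9.04 and 8.96 (log2 -0.63 ± 0.20, adjusted p = 0.0267, and -0.69 ± 0.20, adjusted p = 0.00824). Neither late fall passed against all 15 vehicle rats (adjusted p = 0.227 and 0.0845), and that with nevirapine was lost without any 1 of rat13, rat14, rat43, rat44 and rat45 (adjusted p = 0.0578 to 0.102). Cyp2c23, an arachidonic acid epoxygenase gene, measured 11.61 and 11.77 at 48 h of galactosamine against 12.72, 12.56 and 12.59 (log2 -0.93, adjusted p = 2.42e-05). Cyp2b3 was higher in galactosamine rats at 48 h, at 12.84 and 12.70, than in combination rats at 12.27, 12.32 and 12.49 (log2 -0.42 ± 0.14, adjusted p = 0.0174). That difference was lost without any 1 of rat26, rat70 and rat71 (adjusted p = 0.0505 to 0.161).

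In the main fit Cyp2c22 was the only P450 gene called higher 24 h after galactosamine. Cyclic loess normalisation also called Cyp2c12, Cyp2c7 and Cyp2e1 higher. For Cyp2c22 vehicle rats read 11.14, 11.22 and 11.30, galactosamine rats 12.53, 11.86 and 13.20, nevirapine rats 12.80, 12.36 and 12.59, and combination rats 12.76, 12.80 and 12.62. All treated rats lay above all vehicle rats of that time, but not above those of 48 h (12.16, 12.12 and 12.63), since vehicle values of this gene spread widely (SD 0.47 over 15 rats). The rises were log2 1.31 ± 0.23 with galactosamine (adjusted p = 7.24e-06), 1.36 ± 0.23 with nevirapine (adjusted p = 0.00011) and 1.51 ± 0.23 with the combination (adjusted p = 1.92e-06). These 3 values share the same vehicle rats. They passed in each setting and without each rat, including with all 15 vehicle rats as the control.

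Cyp2a3, known mainly from rat lung and nasal tissue, rose in combination rats and stayed up. Vehicle rats lay between 3.87 and 4.42, under or near the background level. Combination rats read 4.73, 5.88 and 4.40 at 3 h, 4.80, 4.49 and 5.01 at 24 h, 7.04, 6.73 and 5.55 at 48 h, and 6.45, 7.70 and 6.95 at 8 d. No combination rat of 48 h or 8 d overlapped any rat given vehicle, galactosamine or nevirapine alone. Cyp2a3 was at least 4.20-fold higher than vehicle at 48 h (log2 2.15 ± 0.26, adjusted p = 3.11e-07) and at least 6.33-fold higher at 8 d (log2 2.87 ± 0.26, adjusted p = 4.25e-10), and both calls held in each setting and without each rat. At 3 h it was at least 1.55-fold higher (adjusted p = 0.0146, but 0.287 without rat62 and 0.059 without rat3), and at 24 h it did not pass (adjusted p = 0.0611).

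Neither drug alone gave a rise of that size. Cyp2a3 measured 3.90, 3.66 and 3.64 at 8 d of galactosamine and 4.74, 4.94 and 5.08 at 15 d of nevirapine. The rise with nevirapine at 15 d, at least 1.46-fold, was called (adjusted p = 0.0458) but lost without any 1 of rat13, rat14, rat15, rat43, rat44 and rat45 (adjusted p = 0.0579 to 0.154). At 8 d the combination lay log2 2.11 ± 0.26 above nevirapine (adjusted p = 4.94e-07).

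Cyp2u1, a fatty acid hydroxylase gene, differed from Cyp2a3 in its timing. It read 4.95, 4.61 and 5.03 in combination rats at 24 h, 4.78, 5.03 and 5.20 at 48 h, and 5.80, 6.51 and 6.50 at 8 d. Vehicle rats at 15 d read 4.66, 5.11 and 4.93, nevirapine rats 4.94, 4.80 and 4.86, and galactosamine rats at 8 d 5.07, 5.39 and 5.21. The combination rats at 8 d were the highest of the 50, with the nearest other rat, given galactosamine 3 h before, at 5.75. The rise was log2 1.37 ± 0.17 over vehicle (adjusted p = 1.87e-07), 1.40 ± 0.17 over nevirapine (adjusted p = 2.49e-07) and 1.33 ± 0.24 beyond the galactosamine effect (adjusted p = 0.000343). The 6 stellate cell and myofibroblast markers, all above background, averaged 7.65 at 8 d of the combination (7.48 to 7.84) and 6.63 in vehicle rats at 15 d (6.52 to 6.81), and their part in this rise was not tested.

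Male-type genes went different ways in these female livers. Cyp2c11, the main male 2C gene, measured 4.95, 4.95 and 4.91 in vehicle rats at 3 h and 6.19, 7.30 and 5.79 in combination rats (log2 1.49 ± 0.27, adjusted p = 3.95e-05). At 48 h it measured 5.13, 5.19 and 5.14 in vehicle rats and 6.30, 6.34 and 5.72 in combination rats (log2 0.97 ± 0.27, adjusted p = 0.00984, but 0.0642 without rat70). Cyp2c13, under background in the 15 d vehicle rats, was at least 1.46-fold higher at 8 d of the combination, at 4.76, 4.83 and 5.15 against 4.05, 4.06 and 4.16 (log2 0.82 ± 0.18, adjusted p = 0.00106). The highest vehicle rat of any time read 4.79, within the range of these combination rats. Cyp2a2 fell instead. It read 6.05, 6.35 and 5.93 in vehicle rats at 15 d and 4.43, 4.59 and 4.23 in combination rats at 8 d (log2 -1.69 ± 0.36, adjusted p = 0.000635). With the 8 d vehicle rats, at 5.86, 4.81 and 5.47, as the control, this fall did not pass (adjusted p = 0.0749).

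After galactosamine alone Cyp2a2 was at least 3.32-fold lower at 24 h, at 4.13, 4.17 and 3.72 against 5.63, 5.95 and 6.73 (adjusted p = 4.18e-06). It was at least 3.15-fold lower at 48 h, at 4.23 and 4.13 against 5.74, 5.21 and 7.13 (adjusted p = 0.000348). Vehicle values of Cyp2a2 spread more than those of any other of the 50 genes (SD 0.62). The female gene Cyp2c12 kept to a narrow band, with group means within log2 0.34 of each other. In the main fit it was called only with nevirapine at 15 d, at 13.26, 13.28 and 13.29 against 12.94, 12.92 and 13.01 (log2 0.32 ± 0.09, adjusted p = 0.0189). That call was lost against all 15 vehicle rats (adjusted p = 0.0874) and without any 1 of rat13, rat14, rat44 and rat45 (adjusted p = 0.0598 to 0.0711). With cyclic loess normalisation Cyp2c12 was called higher 24 h after galactosamine (adjusted p = 1.66e-06). The same normalisation called it lower in the combination than with galactosamine at 24 h (adjusted p = 0.00208).

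Cyp2t1, a family 2 gene of little studied function, was lower at each time of the combination. It measured 6.35, 6.37 and 6.77 at 24 h against 7.71, 8.24 and 7.52 in vehicle rats (log2 -1.33 ± 0.23, adjusted p = 1.58e-05). At 48 h it was 6.54, 6.69 and 7.06 against 7.74, 7.73 and 7.64 (log2 -0.94 ± 0.23, adjusted p = 0.00448). At 8 d it was 7.12, 6.43 and 7.23 against 8.14, 8.05 and 7.87 (log2 -1.10 ± 0.23, adjusted p = 0.000667). With galactosamine alone at 3 h the gene had gone up, at 8.71, 8.16 and 8.39 against 7.67, 7.89 and 7.82 (log2 0.62 ± 0.23, adjusted p = 0.0368). That rise was lost without any 1 of rat1, rat2, rat3, rat16 and rat18 (adjusted p = 0.0559 to 0.179). The fall of the combination at 3 h (adjusted p = 0.0406) was lost without any 1 of rat1, rat2, rat3 and rat63 (adjusted p = 0.0566 to 0.243), and that of nevirapine at 15 d (log2 -0.69 ± 0.23, adjusted p = 0.0434) without any 1 of its 6 rats (adjusted p = 0.0621 to 0.138).

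Family 4 hydroxylates fatty acids at the end of the chain, and Cyp4a1 and Cyp4a3 are standard targets of PPARalpha. Of its 10 genes, 6 fell and none rose 24 h after galactosamine, beside 58.8% of all genes called and 28.5% called lower. The median was log2 -1.19, against -0.07 over all genes. Cyp4a1 measured 12.43, 12.48 and 12.50 in vehicle rats, 9.91, 10.22 and 9.65 after galactosamine, 11.96, 11.96 and 11.58 after nevirapine and 11.39, 12.18 and 11.28 after the combination. The galactosamine rats lay below all other rats of that time. The change was log2 -2.54 ± 0.14 with galactosamine (adjusted p = 4.97e-18), -0.63 ± 0.14 with nevirapine (adjusted p = 0.00223) and -0.85 ± 0.14 with the combination (adjusted p = 6.09e-06). The combination lay log2 1.69 ± 0.14 above galactosamine (adjusted p = 3.61e-12).

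By 48 h Cyp4a1 of galactosamine rats was 11.79 and 11.90 against 12.06, 12.18 and 11.85 (log2 -0.19 ± 0.16, 95% interval -0.51 to 0.13). Neither nevirapine nor the combination was called at 48 h, but both were called lower at the last time. At 15 d nevirapine rats measured 12.34, 12.09 and 12.22 (log2 -0.57 ± 0.14, adjusted p = 0.00516) and combination rats at 8 d 12.30, 12.38 and 12.10 (log2 -0.52 ± 0.14, adjusted p = 0.00569), against 12.79, 12.78 and 12.77 in vehicle rats. Neither passed against all 15 vehicle rats (adjusted p = 0.123 and 0.135), whose Cyp4a1 differed by time group. Cyp4a3 fell with galactosamine at 24 h, at 9.85, 9.44 and 10.31 against 11.42, 11.53 and 11.66 (log2 -1.67 ± 0.16, adjusted p = 7.97e-12).

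Cyp4f4, whose family inactivates leukotriene B4, fell in both galactosamine arms. At 24 h it measured 10.95, 10.84 and 10.75 in vehicle rats, 8.43, 9.23 and 7.78 after galactosamine and 9.13, 8.96 and 8.91 after the combination. The changes were log2 -2.37 ± 0.18 (adjusted p = 1.9e-14) and -1.85 ± 0.18 (adjusted p = 1.41e-10), and the treated groups overlapped. They differed by log2 0.52 ± 0.18 (adjusted p = 0.0187), a call lost with cyclic loess normalisation (adjusted p = 0.118), with those groups fitted alone (adjusted p = 0.303) and without rat22, rat24 or rat67 (adjusted p up to 0.433). At 48 h galactosamine rats still read 9.53 and 9.72 against 11.07, 11.24 and 11.18 (log2 -1.54 ± 0.20, adjusted p = 8.45e-08). Cyp4f1 behaved differently from Cyp4f4. It was not lower at 24 h of galactosamine (11.41, 11.73 and 11.31 against 11.09, 11.43 and 11.12) and fell only by 48 h, to 10.74 and 10.36 against 11.60, 11.54 and 11.60 (log2 -1.03 ± 0.15, adjusted p = 3.89e-07).

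Cyp4v3, a fatty acid hydroxylase gene whose human counterpart is mutated in a retinal dystrophy, measured 8.80, 8.98 and 8.75 at 24 h of galactosamine against 10.92, 10.86 and 10.65. This fall of log2 -1.97 ± 0.14 (adjusted p = 1.6e-15) was larger than that of the combination, at 10.29, 10.19 and 9.50 (log2 -0.82 ± 0.14, adjusted p = 5.71e-06), and the direct difference was log2 1.15 ± 0.14 (adjusted p = 9.23e-09). Cyp4f6 was called lower in every combination group, at 48 h not without rat12 or rat72 (adjusted p up to 0.132) nor against all 15 vehicle rats (0.721). At 8 d it measured 7.88, 7.69 and 7.70 against 8.41, 8.59 and 8.13 (log2 -0.62 ± 0.12, adjusted p = 0.000259), but 8 d vehicle rats read 8.11, 8.17 and 7.98, and against them the fall did not pass (adjusted p = 0.0678). Cyp4f5 rose at 8 d of the combination, at 4.72, 5.66 and 5.15 against 4.23, 4.07 and 4.40. It was at least 1.75-fold higher than vehicle (log2 0.94 ± 0.17, adjusted p = 0.000101) and at least 1.75-fold higher than nevirapine (adjusted p = 0.000245).

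Cyp4b1, known mainly from lung, was low 24 h after galactosamine, at 6.79, 6.77 and 6.88 against 8.55, 8.18 and 8.39 (log2 -1.56, adjusted p = 1.78e-10). It was high at 8 d of the combination, at 8.21, 9.10 and 8.92, and lay log2 0.97 above nevirapine rats at 7.78, 8.00 and 7.56 (adjusted p = 9.55e-05). Against vehicle rats at 8.01, 8.27 and 8.16 these groups overlapped, and the call (adjusted p = 0.00771) was lost without rat84 or rat87 (adjusted p = 0.0557 to 0.0966). Cyp4f17 was higher at 48 h with galactosamine, at 6.15 and 5.94, and with nevirapine, at 5.96, 5.94 and 5.83, than in vehicle rats at 5.03, 5.25 and 5.58. The first call (log2 0.76 ± 0.23, adjusted p = 0.00735) was lost without rat26 (0.0873), and the second (log2 0.63 ± 0.20, adjusted p = 0.0288) without any 1 of rat10, rat11, rat40 and rat41 (0.0734 to 0.127). Cyp4a8 at 24 h of nevirapine (at least 1.10-fold, adjusted p = 0.0203) and Cyp2s1 at 8 d of the combination (at least 1.06-fold, adjusted p = 0.00471) were called higher, from vehicle means under the background level. The call of Cyp4a8 was lost without any 1 of rat4, rat5 and rat39 (adjusted p up to 0.212), against all 15 vehicle rats (0.134) and with only those groups fitted (0.0678). That of Cyp2s1 was lost against all 15 vehicle rats (0.0635) and against those of 8 d (0.212).

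**Figure D3:**
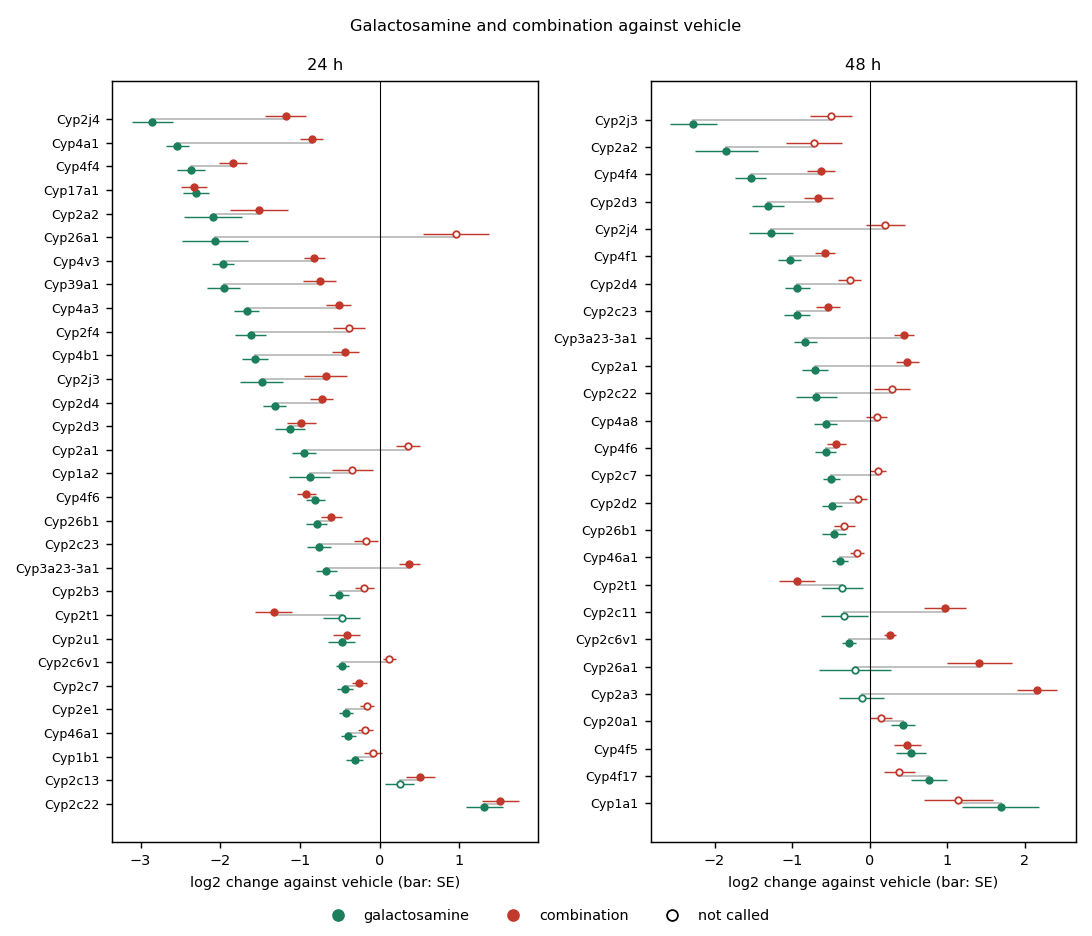
Log2 change against vehicle with its standard error at 24 h (left) and 48 h (right) for galactosamine (green) and the combination (red), for genes called in either and above background in some group; open circles were not called. At 24 h galactosamine lies further below 0 than the combination for Cyp2j4 and Cyp4a1, and both lie together for Cyp17a1.

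Among steroid, retinoid and other enzymes, Cyp26a1 had the widest swings. It measured 5.67, 5.37 and 5.71 in vehicle rats at 3 h, 7.78, 6.83 and 7.38 after nevirapine and 7.17, 7.71 and 7.45 in combination rats. Both treated groups lay apart from vehicle (log2 1.74 ± 0.41, adjusted p = 0.00355, and 1.86 ± 0.41, adjusted p = 0.000654), while galactosamine rats read 5.99, 6.04 and 5.78. At 15 d nevirapine rats measured 7.43, 7.81 and 7.49 and combination rats at 8 d 7.82, 8.72 and 7.99, against 6.23, 5.96 and 5.87 in vehicle rats. These rises were log2 1.56 ± 0.41 (adjusted p = 0.00876) and 2.15 ± 0.41 (adjusted p = 0.0002). The combination and nevirapine did not differ beyond the error at that time (log2 0.60 ± 0.41, 95% interval -0.24 to 1.44).

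At 24 h Cyp26a1 moved in opposite directions with each drug. Vehicle rats read 7.03, 6.26 and 5.91, galactosamine rats 4.86, 4.09 and 4.06, nevirapine rats 8.02, 7.98 and 7.25, and combination rats 7.21, 7.96 and 6.89. Galactosamine lowered it at least 4.08-fold (log2 -2.06 ± 0.41, adjusted p = 4.69e-05). Nevirapine raised it by log2 1.35 ± 0.41 (adjusted p = 0.0272), a call lost without any 1 of rat5, rat6, rat37 and rat38 (adjusted p = 0.0913 to 0.133). The combination did not pass against vehicle (log2 0.95 ± 0.41, adjusted p = 0.0697) and was at least 7.91-fold above galactosamine (log2 3.02 ± 0.41, adjusted p = 2.04e-07). At 48 h nevirapine rats, at 5.96, 6.33 and 6.66, overlapped their vehicle rats at 4.94, 6.24 and 5.57 and did not pass (log2 0.74 ± 0.41, adjusted p = 0.218). Cyp26b1, a second retinoic acid hydroxylase gene, had no such rise and was lower 24 h after galactosamine, at 4.69, 4.98 and 4.95 against 5.53, 5.79 and 5.69 (log2 -0.79 ± 0.13, adjusted p = 2.97e-06), and after the combination (log2 -0.61 ± 0.13, adjusted p = 0.00033).

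Cyp17a1, the 17-hydroxylase of steroid synthesis, which rat liver expresses, fell in both galactosamine arms. It measured 12.77, 12.70 and 12.80 in vehicle rats at 24 h, 10.67, 10.73 and 9.95 after galactosamine and 10.42, 10.69 and 10.16 after the combination. The falls were log2 -2.31 ± 0.16 (adjusted p = 1.48e-15) and -2.33 ± 0.16 (adjusted p = 7.19e-14), and they differed by log2 -0.03 (95% interval -0.35 to 0.29). For Cyp4a1, Cyp2j4 and Cyp39a1 the combination lay above galactosamine at that time. Cyp17a1 was also called lower with nevirapine alone at 24 h. With the combination it was called lower at 3 h too, when galactosamine alone lowered none of these genes. By 48 h galactosamine rats read 12.08 and 12.35 against 12.37, 12.11 and 12.32. The 8 d combination rats, at 12.66, 12.81 and 12.57, were not called.

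Cyp39a1, which hydroxylates the oxysterol 24-hydroxycholesterol on the way to bile acids, was raised by nevirapine and lowered by galactosamine. At 24 h it measured 8.79, 8.54 and 8.51 in vehicle rats, 9.29, 9.26 and 9.56 after nevirapine, 6.68, 7.12 and 6.16 after galactosamine and 7.87, 8.29 and 7.41 after the combination. All 4 groups lay apart. The changes were log2 0.75 ± 0.21 with nevirapine (adjusted p = 0.0121, but 0.0663 without rat5 and 0.0502 without rat39), -1.96 ± 0.21 with galactosamine (adjusted p = 1.1e-10) and -0.76 ± 0.21 with the combination (adjusted p = 0.00313, but 0.0594 without rat79). The combination lay log2 1.20 ± 0.21 above galactosamine (adjusted p = 9.19e-06). Nevirapine rats were also higher at 48 h (log2 0.72 ± 0.21, adjusted p = 0.0132, but 0.0777 without rat41), and they were called higher at 15 d. Combination rats at 8 d, at 9.21, 8.83 and 8.65, were not called against vehicle (log2 0.21 ± 0.21).

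Cyp46a1, which makes 24-hydroxycholesterol from cholesterol, was low in combination rats at 8 d, at 6.04, 6.05 and 6.02. Vehicle rats at 15 d read 6.63, 6.55 and 6.63, nevirapine rats 6.43, 6.52 and 6.58 and galactosamine rats at 8 d 6.37, 6.59 and 6.75. The combination rats were thus the lowest of the 50. The fall was log2 -0.57 ± 0.09 against vehicle (adjusted p = 2.49e-05) and -0.48 ± 0.09 against nevirapine (adjusted p = 0.000457). The 8 d vehicle rats, at 6.20, 6.24 and 6.44, were lower than those of 15 d, and against them the fall did not pass (adjusted p = 0.0631). Cyp20a1, an enzyme of unknown substrate, rose early with galactosamine, at 8.05, 8.14 and 7.72 against 6.88, 7.03 and 7.02 at 3 h (log2 0.99 ± 0.14, adjusted p = 5.95e-07). It rose with the combination at that time too (log2 0.72 ± 0.14, adjusted p = 0.000133). With nevirapine alone it was called higher at 3 h and 48 h, but at 3 h not against all 15 vehicle rats (adjusted p = 0.432). Those 15 rats ran from 6.88 to 7.80, with the 3 h vehicle rats at the low end. Cyp27b1, which activates vitamin D, was not called against vehicle at any time, nor was Cyp21a1, a steroid 21-hydroxylase gene.

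The partners of these enzymes and the receptors that govern them, 16 measured of 17 listed, moved as well. At 24 h of galactosamine 2 were higher and 11 lower (58.8% of all genes called). The fallers included the CAR gene Nr1i3 (log2 -2.77 ± 0.31, adjusted p = 7.42e-10), the PXR gene Nr1i2 (log2 -1.65 ± 0.23, adjusted p = 8.68e-08), the PPARalpha gene Ppara (at least 1.57-fold lower, adjusted p = 1.18e-07) and the reductase gene Por (log2 -1.55 ± 0.21, adjusted p = 2.82e-08). In combination rats at 24 h, 5 were higher and 5 lower (36.7% of all genes called), and Nr1i3 was not called. At 24 h of nevirapine 7 were higher and none lower (11.2% of all genes called). Alas1, the entry enzyme of heme synthesis, was higher with nevirapine at 3 h (log2 1.34 ± 0.23, adjusted p = 0.000121), 24 h (1.51 ± 0.23, adjusted p = 2.65e-05) and 15 d (1.18 ± 0.23, adjusted p = 0.000494), and with the combination at 8 d (1.26 ± 0.23, adjusted p = 0.000121). The aryl hydrocarbon receptor gene Ahr was also higher at 15 d of nevirapine (at least 2.14-fold, adjusted p = 2.65e-05) and at 8 d of the combination (at least 2.23-fold, adjusted p = 5.86e-06). Both rises were set against the 15 d vehicle rats, whose Ahr mean lay under the background level. Vehicle means were higher at 3 h, 24 h and 48 h (5.04, 4.88 and 5.08). Partner genes were not run in the alternative settings.

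Across the 12 comparisons with vehicle, 39 of the 50 genes were called at some time with galactosamine, 21 with nevirapine and 34 with the combination. These shares of 78%, 42% and 68% are near those of all genes, 76.6%, 39.8% and 64.7%. Cyp11a1, Cyp21a1, Cyp27b1, Cyp2b12 and Cyp2j10 were called in none of them. Another probe set was given for 6 of the 50 genes. Among called changes its sign was opposite in 1 case, Cyp2d4 in the combination against nevirapine at 8 d (log2 -0.42 and 0.17), so that fall is uncertain. Probe sets of close relatives within the 2A, 2C, 2D, 4A and 4F subfamilies may also take up each other's transcripts, which these files do not resolve.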

How the data were processed

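Liver RNA (6 ug per rat, labelled as biotin cRNA) was hybridised to 1-colour Affymetrix rat arrays, per the labels' protocols. The deposited values are log2 signals made with RMA, per the submitters' processing notes, which also name limma. A build is not given in the sources used here. The arrays' number, mostly 3 per group, limits the precision.

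Of 31099 probe sets, 20826 list 1 gene symbol, 436 several, 9831 have no entry in the annotation, and 6 are control probe sets with a symbol, left out. The first were reduced to 14217 genes by the highest mean over all samples. limma 3.58.1 (R 4.3.3) was fitted with 1 mean per group over 50 arrays, with lmFit and eBayes and Benjamini-Hochberg adjustment over all genes. Rat numbers are not shared between groups. The 8 d combination was compared with the 15 d vehicle rats, and with galactosamine as the difference of both effects on their own vehicle rats. Named genes are, per comparison, the 8 largest called rises and falls without overlap and above background, plus a set always named. The text also names genes never called or never above background. The members and lists were chosen with earlier results of these data known. Alternatives were the groups fitted, a filter on the dimmest 40% of genes, the mean of all probe sets, cyclic loess and quantile normalisation, array weights, other vehicle groups, 3 arrays left out together, and each rat left out. Promoters were searched with Python 3.11.15.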

Additional observations from a re-analysis of the deposited data

Results flagged for a closer look

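For 7 P450 genes the effect of the combination at 8 d differed from that of galactosamine at 8 d, each measured on its own vehicle rats and tested by the difference itself (limma, Benjamini-Hochberg adjusted p). The combination effect was higher by log2 1.33 for Cyp2u1 (adjusted p = 0.000343) and 0.80 for Cyp2a1 (0.0133). The fitted differences were log2 3.08 for Cyp2a3 (1.25e-06) and 0.92 for Cyp4f5 (0.0116), but the galactosamine rats and both vehicle groups of these 2 genes lay under the background level, so the galactosamine effect was not measured and these values are not sizes. It was lower by log2 -1.20 for Cyp2t1 (0.0153), -0.85 for Cyp46a1 (5.86e-05) and -0.80 for Cyp4f6 (0.00265). The call for Cyp2t1 was lost without rat84 or rat100 (adjusted p = 0.0519 to 0.0685) and that for Cyp4f5 without rat84 (0.062). Cyp26a1 did not pass (log2 1.70, adjusted p = 0.0526).

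The probe set shared by Cyp2b2 and Cyp2b1 entered no comparison, and its mean at 15 d was log2 3.55 higher with nevirapine than with vehicle.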

How the results depend on the processing

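Counts of P450 genes called are given as the alternative's value. With only the compared groups fitted, they were 7 and 3 for the combination against vehicle at 3 h and 48 h, and 7, 13, 13 and 16 against galactosamine at 3 h, 24 h, 48 h and 8 d. Without the dimmest 40% of genes (under log2 5.51, 21 of the 50), they were 11 for the combination against vehicle at 8 d and 3 against nevirapine, as fewer genes were tested. Cyclic loess gave 11 for the combination against galactosamine at 8 d. Array weights gave 2 for galactosamine at 8 d, 13 and 21 for nevirapine at 48 h and 15 d, 9 for the combination at 48 h, 19 against galactosamine at 8 d and 15 against nevirapine. All vehicle rats as 1 control gave 4 for galactosamine at 8 d, 10 for nevirapine at 48 h and 16 for the combination against galactosamine at 8 d. Leaving out rat63, rat70 and rat31 gave 7 for the combination at 48 h. Vehicle at 8 d as control gave 12 for the combination at 8 d, and the direct comparison with galactosamine at 8 d gave 16. The cause was not tested.

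Without each rat in turn, counts ran from 2 to 4, 28 to 33, 15 to 24 and 0 to 0 for galactosamine (3 h, 24 h, 48 h, 8 d), and from 3 to 4, 5 to 7, 1 to 5 and 4 to 10 for nevirapine (3 h, 24 h, 48 h, 15 d). For the combination they ran from 9 to 14, 14 to 19, 6 to 12 and 16 to 19 against vehicle (3 h, 24 h, 48 h, 8 d), from 8 to 13, 16 to 24, 16 to 23 and 5 to 9 against galactosamine, and from 6 to 8 against nevirapine. Where galactosamine at 48 h was left with 1 rat, that rat was assumed to vary like the other groups.

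With cyclic loess 8 values changed sign. At 24 h of galactosamine these were Cyp2c12 (0.45), Cyp2c6v1 (0.14), Cyp2c7 (0.21) and Cyp2e1 (0.23), and for the combination against galactosamine at 24 h Cyp2b3 (-0.021), Cyp2c12 (-0.29), Cyp2c7 (-0.25) and Cyp2e1 (-0.17). Cyclic loess moved the median of all genes by at most log2 0.049. No paired analysis was possible because the groups share no rat numbers. With cyclic loess, Cyp2c12, Cyp2c7 and Cyp2e1 were called higher at 24 h of galactosamine (adjusted p = 1.66e-06, 0.0254 and 0.00583). Where a value changed sign, its direction depends on the normalisation. Changes of genes near background or near the top of the scale may be understated, which was not tested.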
